A study of Mus musculus with 2 samples.

Results

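The genes described here are 38 mouse genes for molecular chaperones and folding enzymes. They comprise 8 genes of the CCT ring, 6 of prefoldin, 3 HSP90 genes, 5 HSP70 genes, 2 HSP110 genes, 2 genes of the mitochondrial chaperonin, 1 small heat shock gene, 3 J protein genes, 5 genes of HSP90 co-chaperones and 3 of prolyl isomerases. They were listed by symbol, with no threshold on their values. Each gene row was matched by its Ensembl identifier, without the version, to GENCODE M21, and all 38 symbols were found among the 43346 gene rows. For the comparison of constitutive with stress-induced members, 6 genes known to be raised by heat shock (Hspa1a, Hspa1b, Hspb1, Hsph1, Dnajb1 and Hsp90aa1) formed one class and the other 32 the constitutive class. The classes follow general knowledge of these genes, but earlier results of these libraries were known when the classes were drawn.

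The samples were 2 RNA sequencing libraries from the forebrain of B6NCrl mouse embryos at day 11.5 of development, males and females pooled, and they form a single group. Replicate 1 came from 109 embryos and replicate 2 from 88, and the labels name no treatment or mutation. Each library was prepared by a Smart-Seq protocol, which amplifies complementary DNA, from as much RNA (over 200 nucleotides long) as 1 cell contains, with spike-in RNA added. The labels call the assay single cell RNA-seq, but the RNA came from pooled tissue, so each library is a bulk sample and no individual cell was measured.

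Newly made proteins often need help to reach their folded form, and chaperones bind them while they are still unfolded. CCT, also called TRiC, is a double ring of related subunits in the cytosol that encloses actin, tubulin and other substrates and folds them with ATP. Prefoldin is a small complex of different subunits that hands actin and tubulin to CCT. HSP70 proteins bind short unfolded stretches, J proteins bring them substrates and switch on their ATPase, and HSP110 proteins exchange their nucleotide. HSP90 acts late, on nearly folded clients such as kinases and steroid receptors, together with co-chaperones. Many of these genes are transcribed at all times, while others are switched on by heat shock factors when unfolded proteins build up. Developing brain makes much tubulin and actin for cell division and for outgrowing axons.

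The libraries held 28639678 and 28948074 expected counts, which are reads assigned to genes by estimation and need not be whole. Levels are given as TPM (transcripts per 1000000, corrected for gene length and depth), with the value of replicate 1 before that of replicate 2. Spike-ins took 8.44% and 6.56% of TPM. Detection was set at 1 TPM or more, which 8928 and 9813 genes reached. The neural progenitor markers Pax6, Sox2, Nes, Vim and Fabp7 and all 3 markers of young neurons checked were detected in both libraries. Erythroid genes were also present, with a summed level of 31166 and 37360.5 TPM over 8 listed genes, and 3 of 4 endothelial and 3 of 3 mesenchymal markers were detected in both. With 1 group of 2 libraries no test between groups was possible. A difference between genes is called clear below only where the 2 libraries' ranges of TPM do not overlap.

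As a group the chaperone genes were abundant. They summed to 21016 and 22168 TPM, which is 2.10% and 2.22% of all TPM, and held 2.40% and 2.37% of the counts of all genes. Of the 38 genes, 35 (92.1%) were detected in both libraries, against 7207 of 43346 gene rows (16.6%) and 6531 of 21474 protein-coding genes (30.4%). The 3 others, Hspa1a, Hspa1b and Hspb1, all belong to the stress-induced class and were detected in neither library. An average of 100 TPM or more was reached by 30 of the 38, against 1658 of the 11107 genes averaging 1 TPM or more (14.9%). Ppia ranked 10 among all genes by mean TPM, Hspa8 34, Hsp90ab1 53 and Hsp90aa1 81. In bulk RNA a lower level may come from fewer cells of a type or from less RNA per cell, and these cannot be told apart.

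**Figure D1:**
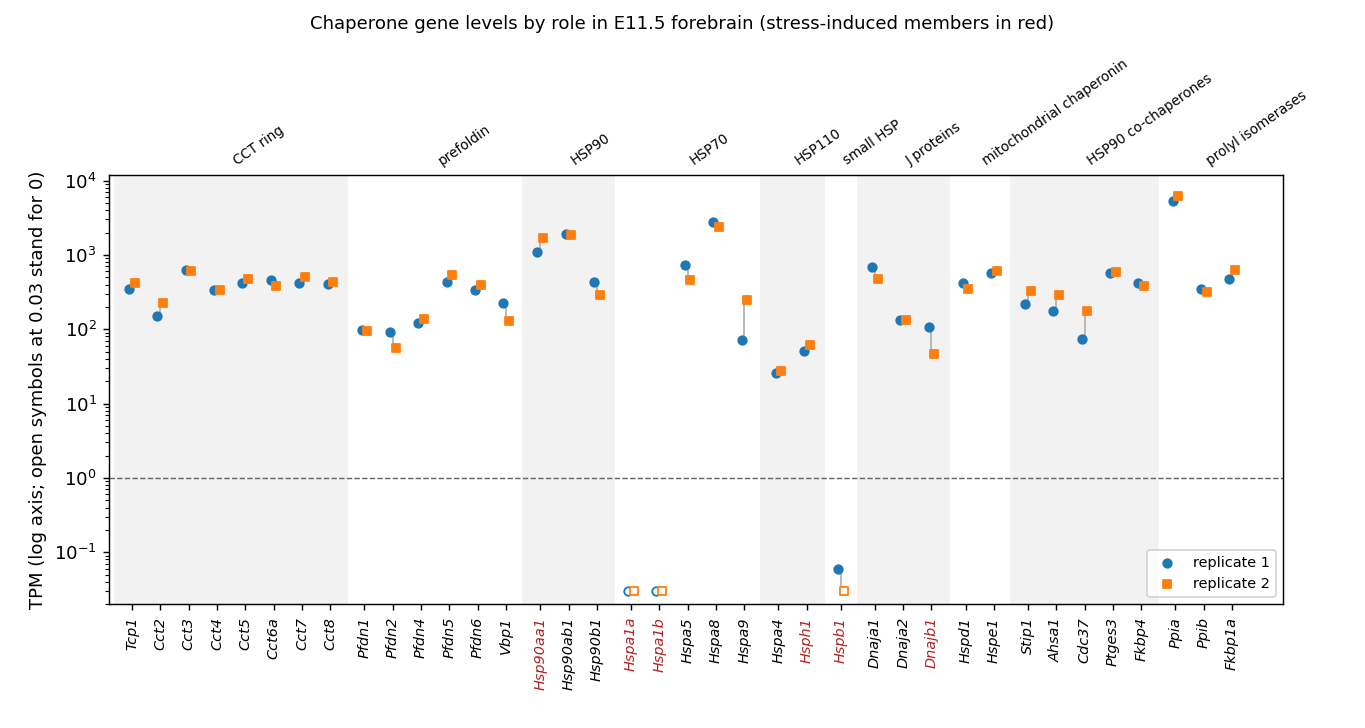
TPM of each of the 38 genes (log axis) in replicate 1 (circles) and replicate 2 (squares), grouped by role, with stress-induced genes named in red and a dashed line at the detection level of 1 TPM. Open symbols stand for 0. Hspa1a, Hspa1b and Hspb1 lie below the line in both libraries, and the other 35 genes lie above it, with Ppia highest at 5237 and 6119 TPM.

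The 8 genes of the CCT ring, which assembles from a single copy of each subunit per ring, were all detected and summed to 3169 and 3392 TPM. Cct3 was the highest subunit, at 635 and 612 TPM, or 623 ± 16.0 (SD, n = 2). Cct2 was the lowest, at 153 and 226 TPM, or 189 ± 51.7 (SD, n = 2). The other 6 lay between 338 and 499 TPM in every library. By the TPM of the whole gene, Cct3 thus lay clearly above and Cct2 clearly below all of them.

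Among those 6, Cct7 was at 416 and 499 TPM and Cct5 at 425 and 474. Cct6a was at 454 and 385 TPM and Cct8 at 402 and 434. Tcp1, which encodes the alpha subunit, was at 344 and 425 TPM, and Cct4 at 341 and 338. The ranges of Cct5, Cct6a and Cct7 overlapped, as did those of Tcp1 with Cct6a, Cct7 and Cct8, and Cct4 lay below all but Cct2 in both libraries. The highest subunit stood 4.16 times above the lowest in replicate 1 and 2.71 times in replicate 2, and the coefficient of variation over the subunits was 34.0% and 27.0%. The order of levels is that of TPM. By reads alone, without the correction for length, Cct7 had the most, with 21894 and 26023 expected counts against 21322 and 17779 for Cct3. In replicate 2 Tcp1, Cct5 and Cct8 also had more than Cct3, with 19038, 18595 and 18270 counts. Cct3-203, annotated as a retained intron and 472 bases long, held 24.95% and 37.3% of the TPM of Cct3. The protein-coding Cct3-201 was at 454 and 369 TPM. Tcp1 lies against Acat2, with which it shares 12.1% of the 50-base words of its leading transcript, and Acat2 held 18632 and 20221 counts, so some reads of that pair may not be separable.

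Prefoldin was less even. Pfdn5, also known as MM-1, was the highest subunit, at 434 and 538 TPM, followed by Pfdn6 at 341 and 390. Both lay clearly above the other 4, whose values ran from 56.2 to 225 TPM. Vbp1, which encodes prefoldin subunit 3, was at 225 and 131 TPM and Pfdn4 at 120 and 138. Pfdn1 was at 97.9 and 94.1 TPM, and Pfdn2 was the lowest in both libraries, at 92.9 and 56.2. The highest subunit stood 4.67 times above the lowest in replicate 1 and 9.57 times in replicate 2. Pfdn5 was higher and Pfdn2 lower in replicate 2. Pfdn2-203, annotated as a processed transcript and 474 bases long, held 60.1% and 56.8% of the TPM of Pfdn2. Pfdn5-201, annotated as a target of nonsense-mediated decay, held 33.55% and 39.5% of the TPM of Pfdn5. By reads alone the order was another. Vbp1 had 7536 and 4326 expected counts, against 4128 and 5086 for Pfdn5 and 4391 and 5029 for Pfdn6. The median of the 6 subunits was 173 and 135 TPM, against 409 and 429 for the CCT ring, and both values for prefoldin lay below both for CCT.

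**Figure D2:**
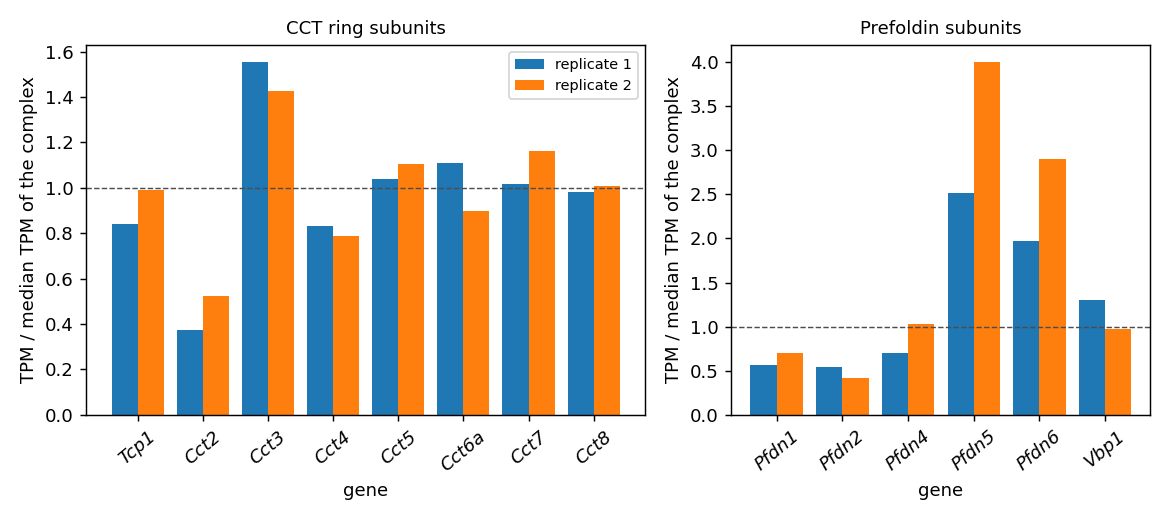
TPM of each subunit gene divided by the median TPM of its complex, for CCT (left) and prefoldin (right), in replicate 1 (blue) and replicate 2 (orange). The dashed line marks the median. CCT subunits other than Cct3 and Cct2 lie between 0.786 and 1.16 times the median in both libraries, while prefoldin runs from 0.417 for Pfdn2 to 3.996 for Pfdn5.

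The constitutive HSP70 gene Hspa8, which encodes the cytosolic chaperone HSC70, was the second highest of the chaperone genes, at 2761 and 2356 TPM, or 2559 ± 286 (SD, n = 2). The stress-induced cytosolic HSP70 genes Hspa1a (chr17:34969190-34972156, mm10) and Hspa1b (chr17:34956436-34959238) had 0 expected counts in replicate 1 and in replicate 2. A count of 0 allows up to 3 by counting error, which is 0.0467 and 0.0472 TPM for Hspa1a and 0.0496 and 0.0500 TPM for Hspa1b. Against that limit Hspa8 was at least 59081-fold and 49967-fold higher than Hspa1a, and at least 55703-fold and 47109.6-fold higher than Hspa1b. These limits apply to the reads in the libraries and not to the tissue. Counts could differ widely between the libraries, as for the heat shock factor gene Hsf1, with 1486 in replicate 1 and 22 in replicate 2, and the part of the small RNA input in this was not tested.

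Hspa1a and Hspa1b are near-identical copies: 58.8% of the 50-base words of the Hspa1a transcript also occur in Hspa1b. Since both were at 0, no reads were divided between them. Another gene that shares words with both, Hspa1l, had 189 counts in replicate 1 and 0 in replicate 2. The antisense gene Gm10501, which also shares words with both, had 71.5 and 0. The transcript of Hspa8 shares 86.3% of its words with 13 other genes, most of them pseudogenes, and these held 3059 and 3169.5 counts, against 99779 and 85656.5 for Hspa8. How the reads they share were divided is not known.

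The endoplasmic reticulum HSP70 gene Hspa5, which encodes BiP, was at 724 and 459 TPM, or 591 ± 187 (SD, n = 2). The mitochondrial HSP70 gene Hspa9, which encodes mortalin, was at 70.7 and 244 TPM from 4665 and 15725 counts. It differed more between the libraries than any other of the 35 detected members, with replicate 2 higher by 1.77 on the log2(TPM + 1) scale.

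Of the HSP110 genes, the stress-induced Hsph1 was at 51.1 and 60.9 TPM and its constitutive relative Hspa4 at 25.6 and 27.7. Hsph1 lay clearly above Hspa4, by 1.99 and 2.19 times, or 2.09 ± 0.142 (SD, n = 2). The libraries were further apart in expected counts, where Hsph1 held 180% and 242% of the reads of Hspa4. Hspa4-202, annotated as a retained intron and 630 bases long, held 46.6% and 18.1% of the TPM of Hspa4. Hspa4 was the lowest of the 35 detected genes.

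The cytosolic HSP90 genes were among the most abundant chaperones. The constitutive Hsp90ab1 was at 1901 and 1868 TPM, or 1884 ± 23.0 (SD, n = 2). The stress-induced Hsp90aa1 (chr12:110690605-110702728) was at 1111 and 1700.5 TPM, or 1406 ± 417 (SD, n = 2). Hsp90ab1 lay clearly above Hsp90aa1, which reached 58.4% of it in replicate 1 and 91.0% in replicate 2. In expected counts, which carry no length correction, Hsp90aa1 held 63.4% and 59.5% of the reads of Hsp90ab1, so the higher TPM of Hsp90aa1 in replicate 2 had no counterpart in reads. Hsp90b1, which encodes the endoplasmic reticulum form GRP94, was at 436 and 290 TPM.

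The transcript tables show where the TPM and the reads of Hsp90aa1 part. Hsp90aa1 had 44374 and 46839.6 expected counts, a difference of 0.05 on the log2(CPM + 1) scale (CPM is counts per 1000000 gene counts), while the TPM differed by 0.61 on the log2(TPM + 1) scale. The mean transcript length used for the gene went from 1884 to 1341 bases. Hsp90aa1-208, a transcript of 711 bases, led in TPM in both libraries, with 46.9% and 51.9% of the gene. Hsp90aa1-201, of 2852 bases, had 14554 counts in replicate 1 and 2754 in replicate 2. Hsp90aa1-206, annotated as a retained intron and 924 bases long, had 650.4 and 7264 counts. Hsp90aa1-202, the longest at 3281 bases, held the most reads in both libraries, 21974 and 24704. Replicate 2 thus had fewer reads on Hsp90aa1-201 and more on the short Hsp90aa1-206 and Hsp90aa1-208, and the longest transcript had no fewer. The leading transcript shares 64.4% of its words with 2 pseudogenes, which held 321 and 426 counts in all.

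**Figure D3:**
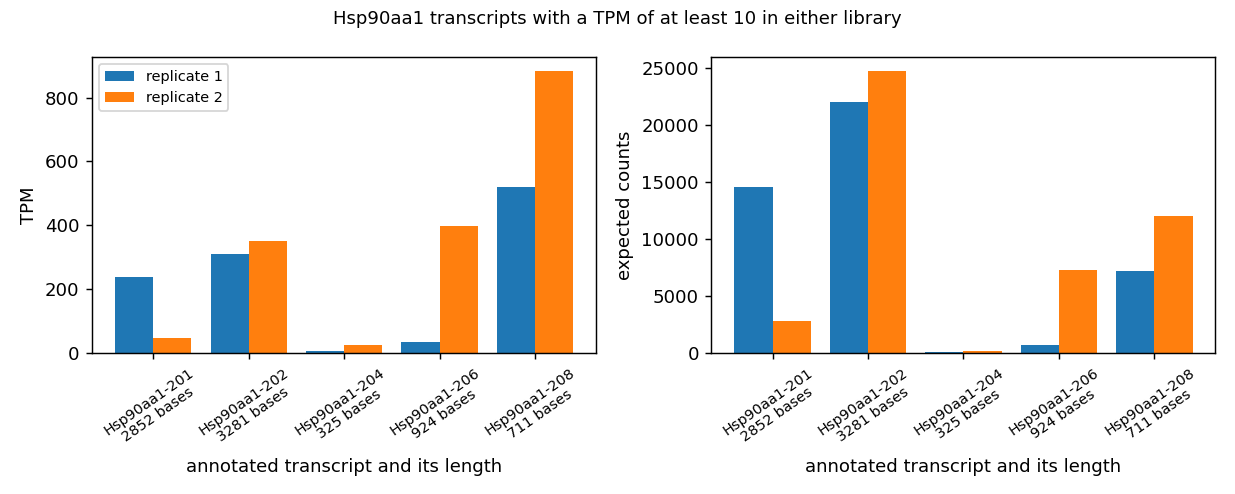
TPM (left) and expected counts (right) of the Hsp90aa1 transcripts with at least 10 TPM in either library, in replicate 1 (blue) and replicate 2 (orange), with their lengths in bases. Hsp90aa1-206 and Hsp90aa1-208 have higher TPM in replicate 2, at 397 and 883, while Hsp90aa1-202 holds the most counts in both libraries.

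The small heat shock gene Hspb1, whose product HSP27 (HSP25 in mouse) holds unfolded proteins without ATP, had 1 expected count in replicate 1 and 0 in replicate 2. The corresponding levels were 0.06 and 0 TPM. Its transcript shares 60.4% of its words with 2 other genes, both at 0 counts in both libraries, so no reads were lost to them.

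The J protein gene Dnaja1, a constitutive partner of HSC70, was at 697 and 478 TPM, and Dnaja2 at 134 and 132. Dnajb1, which encodes the stress-induced HSP40, was at 109 and 46.5 TPM from 5259 and 2230 counts. Dnajb1 reached 15.6% of Dnaja1 in replicate 1 and 9.71% in replicate 2, or 12.6% ± 4.15 (SD, n = 2), and lay clearly below both Dnaja1 and Dnaja2. All 3 J protein genes were higher in replicate 1.

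The mitochondrial chaperonin genes Hspd1 and Hspe1 encode HSP60 and its lid HSP10. Hspd1 was at 423 and 349 TPM, and Hspe1 lay clearly above it, at 565 and 604. In expected counts the order was the other way, 22013 and 17593 for Hspd1 against 8542 and 9040 for Hspe1, since the Hspd1 transcript of 2423 bases is longer than that of Hspe1, at 774.

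The HSP90 co-chaperones were all detected. Ptges3, which encodes p23, was the highest, at 566 and 583 TPM, or 575 ± 11.9 (SD, n = 2). Fkbp4, which encodes the immunophilin FKBP52, followed at 423 and 387 TPM. Stip1, which encodes HOP, the adaptor between HSP70 and HSP90, was at 222 and 329.9 TPM.

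Ahsa1, whose product AHA1 speeds the HSP90 ATPase, was at 176 and 285 TPM. Cdc37, which brings kinases to HSP90, was at 74.0 and 175 TPM from 3901 and 9134 counts. Of these 5 co-chaperone genes, 4 were higher in replicate 2, Ptges3 by only 0.04, and the median difference of the 5 was 0.57 on the log2(TPM + 1) scale. Of 12 other HSP90 partners averaging 10 TPM or more, 5 were higher in replicate 2 and 7 in replicate 1, with a median of -0.14.

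Ppia, which encodes cyclophilin A, had the highest level of all 38 genes, at 5237 and 6119 TPM, or 5678 ± 623 (SD, n = 2). Its reads are hard to place. Of the words of its leading transcript, 80.5% occur in 36 other genes, and the processed pseudogene Gm10123, which shares 56.4%, was itself given 37823 and 46075 counts, beside 68149 and 80032 for Ppia. The split of reads between Ppia and Gm10123 is therefore uncertain. The leading transcript Ppia-201, with 77.0% and 78.1% of the TPM of the gene, is annotated as a target of nonsense-mediated decay. Fkbp1a, which encodes FKBP12, was at 482 and 618 TPM, and Ppib, which encodes the cyclophilin of the endoplasmic reticulum, at 347 and 315.

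The stress-induced class was split, and its median stood far below that of the constitutive class. The median over the 6 stress-induced genes was 25.6 and 23.2 TPM, or 24.4 ± 1.65 (SD, n = 2), and that over the 32 constitutive genes 409 and 386 TPM, or 397 ± 15.8. The stress-induced median lies midway between an undetected gene and the lowest detected one, Hsph1 in replicate 1 and Dnajb1 in replicate 2. No gene of that class was near it, so its small SD does not show a reproducible level. All 32 constitutive genes were detected in both libraries, with values from 25.6 to 6119 TPM, and 3 of the 6 stress-induced genes were. Those 3 were Hsp90aa1, Hsph1 and Dnajb1, and they ran from 46.5 to 1700.5 TPM, within the range of the constitutive genes. The stress-induced class held 6.04% and 8.16% of the TPM of all 38 genes, nearly all of it from Hsp90aa1. Beside the constitutive member chosen for comparison, the stress-induced gene was lower for Hsp90aa1, for Hspa1a with Hspa1b, and for Dnajb1, and higher for Hsph1. The order depends on the gene chosen. Dnaja1 is another J protein gene and not a close relative of Dnajb1. Hspa4l, from the list of other HSP70 and HSP110 genes, was at 76.5 and 32.9 TPM and overlapped Hsph1 in range. The class medians depend on the choice of classes. With a narrow stress-induced class of Hspa1a, Hspa1b, Hspb1 and Dnajb1 the median was 0.015 TPM (mean of the libraries), and with a broad class that adds Dnaja1, Ahsa1, Stip1, Fkbp4, Hspd1 and Hspe1 it was 253 TPM.

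**Figure D4:**
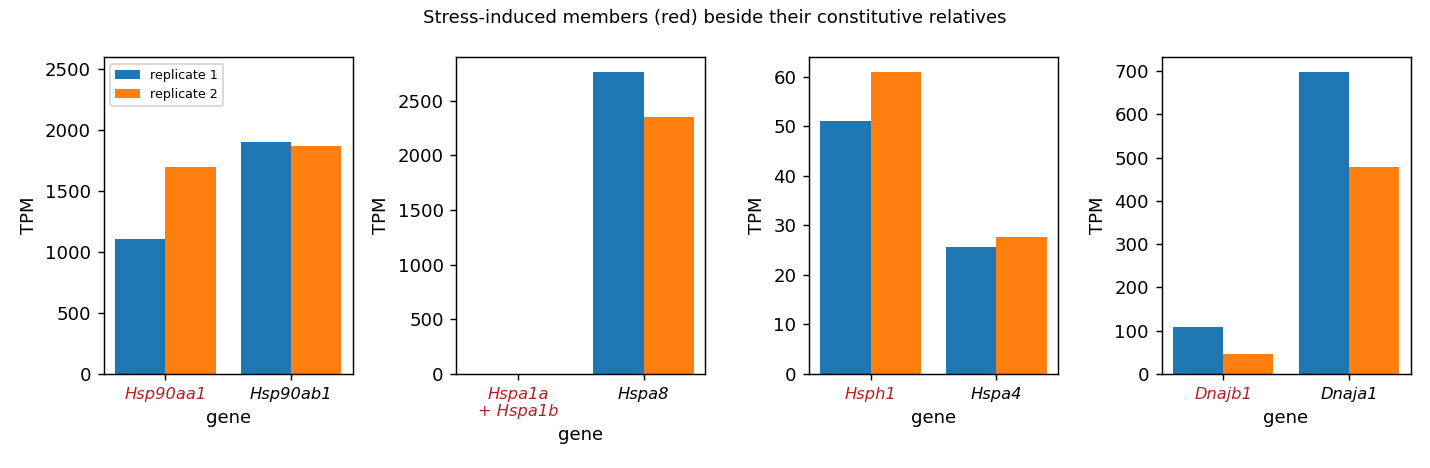
TPM of stress-induced genes (red names) beside the constitutive members chosen for comparison, in replicate 1 (blue) and replicate 2 (orange), each panel with its own axis from 0. Hspa1a plus Hspa1b is 0 in both libraries beside Hspa8 at 2761 and 2356 TPM, and Hsph1 alone lies above the gene beside it.

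Immediate early genes, which tissue dissection is known to switch on, were checked beside these values. Of 9 listed, only Btg2 was detected in both libraries, and Fos, Fosb and Atf3 had 0 counts in both. Their summed level was 123 and 131 TPM, most of it from Btg2 alone, at 95.7 and 105 TPM. Jun was at 0 and 25.7 TPM and Egr1 at 22.4 and 0.

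Heat shock factors bind heat shock elements, which are runs of inverted 5-base units. The promoters of the chaperone genes were searched for such runs because the classes rest on this response. RefSeq promoters (GRCm38.p6, 250 bases before each start site) were given for 32 of the 38 genes. Those of Cct4, Pfdn1, Hsp90aa1, Hsp90ab1, Hspa8 and Hspa9 were not searched here. The motif was NGAAN and NTTCN in alternation with no gap, which reads the same on both strands. Elements with a gap or a changed base were not searched for, so a short run may be part of a longer one. A run of 3 units was found in 138 of 27025 genes with a promoter (0.511%), 2 of them members, Hspd1 and Hspe1. A run of 4 units was found in 6 genes (0.0222%), and these include the same 2 members. A run of 2 units, a weak match, was found in 14.4% of genes and in 11 of the 32 members, 4 of 5 stress-induced genes (Hspa1a, Hspa1b, Hspb1 and Hsph1, but not Dnajb1) and 7 of 27 constitutive genes (Cct2, Cct5, Cdc37, Dnaja1, Fkbp4, Hspd1 and Hspe1).

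The sequences below show the run of 4 units, matches in stress-induced genes, and for comparison the 2-unit matches of the constitutive genes Cct2 and Dnaja1, 2 of 5 constitutive genes with no longer run. They are written 5′ to 3′ on the strand of the gene, from RefSeq, with the GAA and TTC of the units in capitals.
Hspe1, chr1:55088053-55088082 (+), 4 units: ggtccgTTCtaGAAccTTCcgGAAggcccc
Hspa1a, chr17:34972232-34972281 (-), 2 units: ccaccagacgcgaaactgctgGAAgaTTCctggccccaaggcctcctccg
Hspb1, chr5:135887781-135887850 (+), 2 runs of 2 units: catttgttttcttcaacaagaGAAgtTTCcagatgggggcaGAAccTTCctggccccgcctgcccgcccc
Hsph1, chr5:149636356-149636375 (-), 2 units: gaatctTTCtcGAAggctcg
Cct2, chr10:117063389-117063438 (-), 2 units: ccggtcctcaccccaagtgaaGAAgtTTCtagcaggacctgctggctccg
Dnaja1, chr4:40722338-40722357 (+), 2 units: cctctaGAAaaTTCtacgag

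Hspe1 and Hspd1 are transcribed away from each other from starts 216 bases apart, so the element of 4 units is a single stretch shared by both promoters, from 90 to 71 bases before the start of Hspe1. All 30 bases shown for it lie in annotated exons of M21, as do all 20 shown for Hsph1 and for Dnaja1. The 30 bases lie within the M21 span of Hspd1 (chr1:55077835-55088243) and before that of Hspe1 (chr1:55088132-55091307). Hspa1b has the same 50 bases as Hspa1a around its match. The run of 4 units lay before genes at 349 to 604 TPM. Runs of 2 lay before Hspa1a, Hspa1b and Hspb1, at 0 or 1 count. They also lay before detected genes such as Dnaja1 at 697 and 478 TPM, Cct5 at 425 and 474 and Hsph1 at 51.1 and 60.9. The presence of an ungapped run of 2 thus did not separate detected from undetected members, and elements with a gap were not compared. A match is a run of letters and no measured binding, and none of these data show which factor was bound.

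Between the libraries, 32 of the 35 detected members differed by less than 2-fold. The difference is that of log2(TPM + 1), replicate 2 minus replicate 1, for genes averaging 10 TPM or more, a filter that 35 of the 38 members passed. Of those 35, 3 differed at least 2-fold: Hspa9 (1.77) and Cdc37 (1.23) were higher in replicate 2 and Dnajb1 (-1.21) in replicate 1. Over all 7680 genes past the filter 51.3% differed 2-fold, but that share falls with level. It was 65% at a mean TPM of 10 to 50, 42.9% at 50 to 100, 28.9% at 100 to 200, 14.7% at 200 to 500 and 1.67% at 500 and above. The members fell in these ranges as 1, 4, 6, 14 and 10 genes, of which 0, 1, 2, 0 and 0 differed 2-fold.

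The median absolute difference of the members was 0.25, against 1.04 over all genes past the filter. Within the ranges from 200 to 500 TPM and from 500 TPM up, it was 0.25 and 0.23 for members and 0.42 and 0.24 for all genes. From 50 to 100 and from 100 to 200 TPM it was 0.48 and 0.67 for members and 0.83 and 0.59 for all genes. The median difference of the 35 members was 0.09, with 19 higher in replicate 2 and 16 higher in replicate 1, and that of all genes 0.02. The direction of Hsp90ab1 and Cct4, at -0.02 and -0.01, turned to 0.14 and 0.0049 in CPM.

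**Figure D5:**
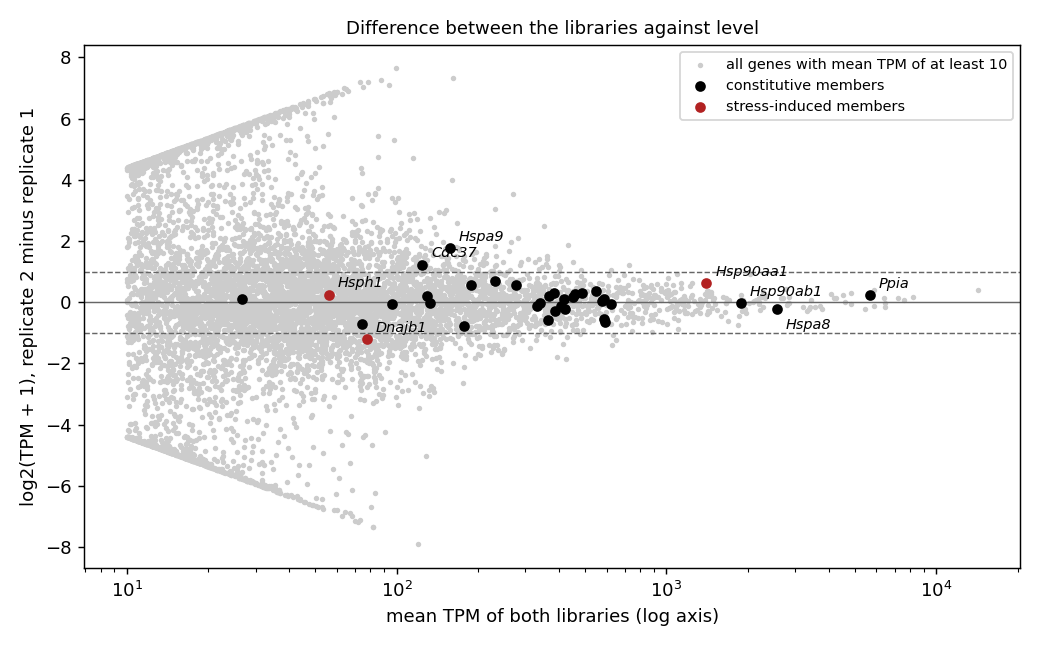
Difference between the libraries on the log2(TPM + 1) scale, replicate 2 minus replicate 1, against mean TPM (log axis) for the 7680 genes averaging 10 TPM or more (grey), constitutive members (black) and stress-induced members (red). Dashed lines mark 2-fold. Hspa9 at 1.77, Cdc37 at 1.23 and Dnajb1 at -1.21 lie beyond them, and the other 32 members lie inside.

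All 3 members that work in the endoplasmic reticulum were higher in replicate 1, with differences of -0.65 for Hspa5, -0.59 for Hsp90b1 and -0.14 for Ppib. Other genes of folding in that compartment went both ways: of 11 averaging 10 TPM or more, 6 were higher in replicate 1 and 5 in replicate 2. Of the 3 that work in mitochondria, Hspa9 and Hspe1 were higher in replicate 2 and Hspd1 in replicate 1. Among the other largest differences, Vbp1 (-0.78) and Pfdn2 (-0.72) were higher in replicate 1, and Ahsa1 (0.69), Stip1 (0.57) and Cct2 (0.56) in replicate 2. For several members the TPM and the CPM gave different sizes, Hsp90aa1 among them, as described above. Cct3 differed by -0.05 in TPM and -0.29 in CPM. Hsph1 differed by 0.25 in TPM and 0.83 in CPM, Hspa4 by 0.11 and 0.40, and Dnaja1 by -0.54 and -0.85. The mean transcript lengths of these last 3 differed between the libraries too, from 2499 to 3802 bases for Hsph1, from 2760.5 to 3459 for Hspa4 and from 1986 to 1668 for Dnaja1. For Hsph1, the transcript Hsph1-201 held 60.7% of the TPM in replicate 1 and 100% in replicate 2. Erythroid genes were higher in replicate 2 for all 7 that averaged 10 TPM or more, and their part in these differences was not tested.

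The transcript that led in TPM was the same in both libraries for 23 of 25 members (92.0%) with several transcripts and at least 5 TPM in each library, against 65.6% of 4352 genes chosen alike. At 50 TPM or more, it was 22 of 24 members and 80.7% of 1615 genes. The share over all genes thus rose with level. Most members averaged over 100 TPM, and no comparison at their own level was made. The 2 exceptions were Pfdn6, where Pfdn6-204 and Pfdn6-201 held 51.1% and 46.9% in replicate 1 and 44.3% and 49.7% in replicate 2, and Dnaja1, where Dnaja1-201 held 45.6% and 28.0% and Dnaja1-205 37.3% and 38.3%. By expected counts the leading transcript was the same for 25 of 25 members and 70.5% of the 4352 genes. Vbp1-201, Hspe1-201 and Fkbp4-201 each held over 97.5% of their genes in both libraries. Cct8, Cct4 and Hspa8 were divided, their leading transcripts holding 48.1% and 54.95%, 50.5% and 56.5%, and 53.8% and 55.3%.

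Genes that work with these chaperones but are not among the 38 were counted in 10 lists. Of 102 such genes, 72 were detected in both libraries, against 16.6% of all gene rows and 30.4% of protein-coding genes. Of the 81 averaging 10 TPM or more, 30 (37.0%) differed 2-fold, 14 higher in replicate 2 and 16 in replicate 1. Over all 7680 genes past that filter the share was 51.3%, and it falls with level as given above. Tubulin cofactors and other CCT partners were detected in both for 7 of 9 genes, led by Tbca at 309 and 464 TPM and Tbcb at 259 and 212. The prefoldin-like and R2TP genes were detected for 6 of 7, with the ATPase gene Ruvbl1 at 134 and 122 TPM. Uxt, a prefoldin-like gene, was at 168 and 48.6 TPM. Other HSP90 partners were detected for 12 of 13, with Nudc at 219.8 and 313 TPM and Ppid at 148 and 297.

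Other isomerases were detected in both libraries for 14 of 16 genes, led by Fkbp3 at 812 and 829 TPM, followed by Ppig at 208 and 202. Other J protein genes were detected for 12 of 17, with Dnajc9 at 217 and 263 TPM and Dnajc8 at 239 and 186. Of 10 nucleotide exchange genes 8 were detected, with Hspbp1 at 169 and 87.4 TPM and Grpel1, which serves the mitochondrial HSP70, at 68.2 and 54.2. Genes of folding in the endoplasmic reticulum were detected for 10 of 12, with the lectin chaperone gene Calr at 545 and 546 TPM and the disulfide isomerase gene Pdia3 at 608.5 and 322.

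In 3 lists most genes were not detected in both libraries. None of 7 other small heat shock genes was: Hspb6 was at 0.07 and 25.5 TPM and Cryab at 0.04 and 16.1, and 4 had 0 counts in both. Of 7 other HSP70 and HSP110 genes, 2 were detected in both, with Hspa4l at 76.5 and 32.9 TPM and Hspa13 at 2.12 and 30.3. Of the 4 heat shock factor genes only Hsf2 was detected in both, at 19.7 and 45.1 TPM. Hsf1, the main factor of the heat shock response, was at 34.6 and 0.52 TPM, and Hsf4 and Hsf5 had 0 counts in both.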

How the data were processed

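RNA abundance was measured in 2 libraries of 1 group. Per the file headers, the authors' gene and transcript tables give expected counts (estimated reads, not normalized), TPM and FPKM, each with a posterior mean. The deposited transcript tables give the percent of a gene's TPM in each transcript, and the deposited posterior spreads and interval limits were treated as a score and not used for results. Text deposited with the tables names mm10 and annotation M4. Not given in the sources used here are the aligner, the quantification program and the use of strand, so overlapping and antisense genes may share reads. The spike-ins count toward the TPM total, so the TPM of genes falls as the spike-in share grows.

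Symbols and 1-based mm10 coordinates came from GENCODE M21, which matched 42462 of 43346 gene rows. The members, classes and lists were chosen with earlier results of these data known. The text names all 38 members and the 2 genes of highest mean TPM in each of 10 other lists. Btg2, Jun, Egr1, Hspa1l, Hsf4, Hsf5 and the genes sharing sequence with members were named after their values were seen. Some listed marker genes are not reported here.

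The median of each class, the ratios and mean ± SD were computed from TPM, the differences on the log2(TPM + 1) scale, with 2-fold as an absolute difference of at least 1. CPM are expected counts per 1000000 over gene rows. The floor of 3 counts is 0.110 and 0.107 CPM and, like all counting limits here, covers counting error only, since reads carry no molecular identifiers. Shared sequence is the share of 50-base words of a member's leading transcript found in M21 transcripts of other genes. The 2-fold count and the search for runs were tested on simulated data. The simulated counts held counting error only, far less than the spread between these libraries. They therefore do not check the 2-fold count at that spread. A chi-square statistic of the counts was 660.2 per degree of freedom over 12198 genes, so the tables are not copies of each other. The pools came from separate sets of embryos, per the labels. Alternatives were the posterior mean, TPM over gene rows alone, FPKM, CPM, TMM scaling (edgeR 4.0.16 in R 4.3.3), pseudocounts of 0.1 and 10, other filters, other classes, other run lengths and each library alone.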

Additional observations from a re-analysis of the deposited data

How the results depend on the processing

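Of 83 alternative values of the main quantities, 72 stayed within the spread between the libraries, or within 1.5 times for counts. The other 11 moved beyond these limits. The 72 do not measure stability, since many were fixed in advance. For levels and ratios, a value from 1 library alone lies within that spread by construction. Ratios between genes are the same or nearly so as TPM over gene rows and as FPKM. The count of 35 detected members was the same in every alternative, and Hspa9, Cdc37 and Dnajb1 were the 3 members differing 2-fold under every scaling and pseudocount. With a filter of 100 TPM 2 remained, since Dnajb1 lies below it. The class medians moved with the unit: 429.9 constitutive and 26.4 stress-induced as TPM over gene rows alone, 544 and 44.97 as CPM, and 308 and 18.9 as FPKM. With the narrow stress-induced class that median was 0.015 TPM, and with the broad class the medians were 381 constitutive and 253 stress-induced. The ratio of Hspa1a plus Hspa1b to Hspa8 was 1.61e-05 by the posterior mean, which is never exactly 0. Promoters with a run numbered 11 at 2 units against 2 at 3 units. With each library alone, the ratio of Hsp90aa1 to Hsp90ab1 ran from 0.584 to 0.910, that of the highest to the lowest CCT subunit from 2.71 to 4.16 and for prefoldin from 4.67 to 9.57. No paired analysis was possible because there is 1 group. With 2 libraries from 1 cell-equivalent of RNA each, genes averaging 10 to 50 TPM differed 2-fold in 65% of cases, and a gene at 0 may still be expressed in the tissue.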
